A study of Mus musculus with 8 samples.

Results

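The Nr4a nuclear receptors and the Dusp phosphatases examined here were 9 genes, taken by name from a table of spleen mRNA: Nr4a1, Nr4a2, Nr4a3, Dusp1, Dusp2, Dusp4, Dusp5, Dusp6 and Dusp10. They were found as 10 transcripts among 23517, and as 9 gene symbols among 17738. RNA was sequenced from whole spleens of 8 untreated male C57BL/6 mice, each spleen 1 animal, aged 8 to 12 weeks. The 4 wild-type animals were compared with 4 that carry TTPΔARE, an allele of Zfp36 from which the AU-rich element of its own mRNA was removed. The labels do not say whether the allele was on both chromosomes. Zfp36 encodes tristetraprolin (TTP), which binds AU-rich elements in mRNAs and promotes their decay. A spleen is a mixture of cell types, so fewer cells of a type and less RNA per cell cannot be told apart in any value below.

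The Nr4a genes encode orphan nuclear receptors that lymphocytes and macrophages make within a short time of antigen receptor, cytokine or stress signals. They bind DNA without a known hormone, as monomers or dimers, and Nr4a1 and Nr4a2 can also pair with the retinoid X receptor. In mice, Nr4a1 is needed for the patrolling, non-classical monocytes. The Dusp genes encode dual specificity phosphatases that remove the activating phosphates from the MAP kinases ERK, JNK and p38. Dusp1, Dusp2, Dusp4 and Dusp5 are inducible and act in the nucleus. Dusp6 acts on ERK in the cytosol, and Dusp10, which acts on JNK and p38 and has been found in both compartments, is placed with it here as the cytosolic pair.

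The proximal promoters are shown for the genes on which the results turn: Nr4a1 and Dusp2, which fell, Dusp6, whose values lay in the opposite direction, and Dusp1, the phosphatase that varied most between animals. Promoter sequence was found in RefSeq (GRCm38.p6) for 8 of the 9 genes. Each line gives the 250 bases before a transcription start, 5′ to 3′ on the gene's strand, with 1 window used per gene. The Nr4a1 window lies inside the locus of that gene, which begins at 101253902, and so precedes an internal start. The Nr4a3 window, not printed here, runs from 48045055 to 48045304 on chromosome 4. It lies mostly inside the Nr4a3 locus, which begins at 48045078, and so also precedes an internal start. Capitals mark TGACG, the core of the cyclic AMP response element, on either strand, and a string shared by Nr4a1 and Dusp2.
Nr4a1, chr15:101266596-101266845, plus strand: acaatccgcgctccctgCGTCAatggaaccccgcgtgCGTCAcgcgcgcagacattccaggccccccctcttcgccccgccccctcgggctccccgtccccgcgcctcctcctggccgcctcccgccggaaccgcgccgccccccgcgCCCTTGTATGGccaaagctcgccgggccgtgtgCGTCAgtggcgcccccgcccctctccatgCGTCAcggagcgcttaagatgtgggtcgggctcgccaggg
Dusp2, chr2:127335909-127336158, plus strand: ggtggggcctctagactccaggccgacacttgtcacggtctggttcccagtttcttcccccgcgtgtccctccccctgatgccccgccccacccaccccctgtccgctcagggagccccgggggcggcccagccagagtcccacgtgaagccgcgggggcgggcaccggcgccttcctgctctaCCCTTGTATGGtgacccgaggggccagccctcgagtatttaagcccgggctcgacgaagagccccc
Dusp6, chr10:99262981-99263230, plus strand: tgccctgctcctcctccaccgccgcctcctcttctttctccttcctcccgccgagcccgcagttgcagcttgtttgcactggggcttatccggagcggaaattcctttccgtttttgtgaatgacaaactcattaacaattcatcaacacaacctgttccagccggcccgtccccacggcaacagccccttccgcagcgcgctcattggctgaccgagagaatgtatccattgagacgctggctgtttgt
Dusp1, chr17:26508473-26508722, minus strand: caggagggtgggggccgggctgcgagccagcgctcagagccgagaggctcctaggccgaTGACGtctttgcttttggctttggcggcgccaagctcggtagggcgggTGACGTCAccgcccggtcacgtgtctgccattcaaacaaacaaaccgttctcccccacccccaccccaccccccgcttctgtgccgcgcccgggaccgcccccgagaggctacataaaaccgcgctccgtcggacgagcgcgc

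The longest string common to the Nr4a1 and Dusp2 windows was CCCTTGTATGG, on the gene's strand in both, at -102 to -92 from the Nr4a1 start and at -66 to -56 from the Dusp2 start. It was in 4 of all 32851 RefSeq promoter windows on either strand. Nr4a1 and Dusp2 are among the 4 by the way the string was picked, so the count is no measure of its rarity. How long a string other pairs of windows share was not examined. The others of the 4 were the windows of Fbxo31 and Cuedc2. Their mRNAs stood at 3.41 and 1.25 FPKM in wild-type and 3.57 and 1.26 FPKM in TTPΔARE. Nr4a1 and Dusp2 also each held GCGGGGGCG, a sequence that Egr factors bind, on one strand or the other, as did 2.57% of all windows. The core TGACG occurred 4 times before Nr4a1, Nr4a2 and Nr4a3 alike, 3 times before Dusp1, once before Dusp5 and not at all in the Dusp2, Dusp6 and Dusp10 windows, and 17.8% of all windows held it. In Nr4a1 each of the 4 copies stood within TGCGTCA, which 1.75% of windows held. The full element TGACGTCA was found in Dusp1 (1.55% of windows), where it takes in 2 overlapping copies of the core. Dusp5 held 2 adjoining CArG boxes, the class of site that serum response factor binds (1.47% of windows). AAAGGTCA, the monomer site of the Nr4a receptors themselves, was in 0 of these 8 windows and in 1.34% of all. These motifs were chosen with the sequences in view, and a match is a description of letters and not a site.

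The 3′ untranslated regions of the measured transcripts were searched for TATTTAT, the core heptamer of AU-rich elements that TTP can bind. In GENCODE M21, 26.1% of 15890 genes of the table with such a region held the heptamer at least once, and 8.91% at least 2 times. Dusp1 held 3 in 690 bases, of which 2 lie within the longer TTATTTATT, a form that 6.72% of the genes hold. Nr4a3 held 2 in 3093 bases, Nr4a2 1 in 1326 bases and Dusp2 1 in 581 bases. Nr4a1, Dusp4, Dusp5, Dusp6 and Dusp10 held the shorter ATTTA 1 to 3 times each and the heptamer 0 times. The sites are shown with the heptamer in capitals, named by gene and by the position of its first base after the stop codon.
Dusp1, position 104: gagctggtcctTATTTATttaacaccccc
Dusp1, position 393: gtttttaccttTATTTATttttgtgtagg
Dusp1, position 589: gtatgtttgttTATTTATgatctgaagta
Dusp2, position 520: acagcactttaTATTTATatagaacattg
Nr4a3, position 1413: agctttgcctgTATTTATtgcaagaccac
Nr4a3, position 1546: ggttacatataTATTTATaatgtgtcttt
Nr4a2, position 594: tattttgtgccTATTTATgaataaatatt

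Expression was deposited as FPKM, fragments scaled to transcript length and library depth, so levels of different genes can be set side by side per length. The depth read from the steps between low values was 28.3 to 32.2 M fragments a sample. The spleen label was borne out by its B cell markers: the 6 summed to 769 to 843 FPKM in wild-type and 659 to 709 FPKM in TTPΔARE samples. Marker lists of 9 cell types were examined. Of the transcripts given, 0 were at 0 in every sample, so a marker level above 0 was no check of the label. The 10 erythroid markers had the largest median log2 difference of these lists, 1.33, and 3 passed, Alas2, Hba-a1 and Hbb-b1. Their sum, made up mostly of the globins Hba-a1 and Hbb-b1, was 2651 to 4904 FPKM in wild-type and 6327 to 9850 FPKM in TTPΔARE. The other 7 markers overlapped between genotypes, as did the mean log2 level of the 10, at 3.56 to 4.98 and 4.83 to 5.81. Zfp36 itself stood at 36.4 to 44.9 FPKM in wild-type and 46.1 to 57.5 FPKM in TTPΔARE (limma adjusted p = 0.0323).

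Nr4a1 and Dusp2 fell in TTPΔARE spleen, and the other members tested did not pass. Testing by limma was limited to transcripts whose mean reached 0.5 FPKM and was done on log2(FPKM + 0.5), with p-values adjusted over all 16608 by the Benjamini-Hochberg method. This took in 8 members, all but Nr4a2. By limma 2 of the 8 were lower at an adjusted p under 0.05, where 1.99% of all tested transcripts were lower, and 0 were higher, where 2.01% of all were higher (4.00% in either direction). At an unadjusted p under 0.05 there were 5 of the 8, and 3503 of all 16608. The groups did not overlap for 2 of the 8, both lower, against 12.5% of all tested transcripts (5.99% lower and 6.53% higher). The median log2 difference was -0.12 over the 8 members and 0.003 over all tested transcripts.

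**Figure D1:**
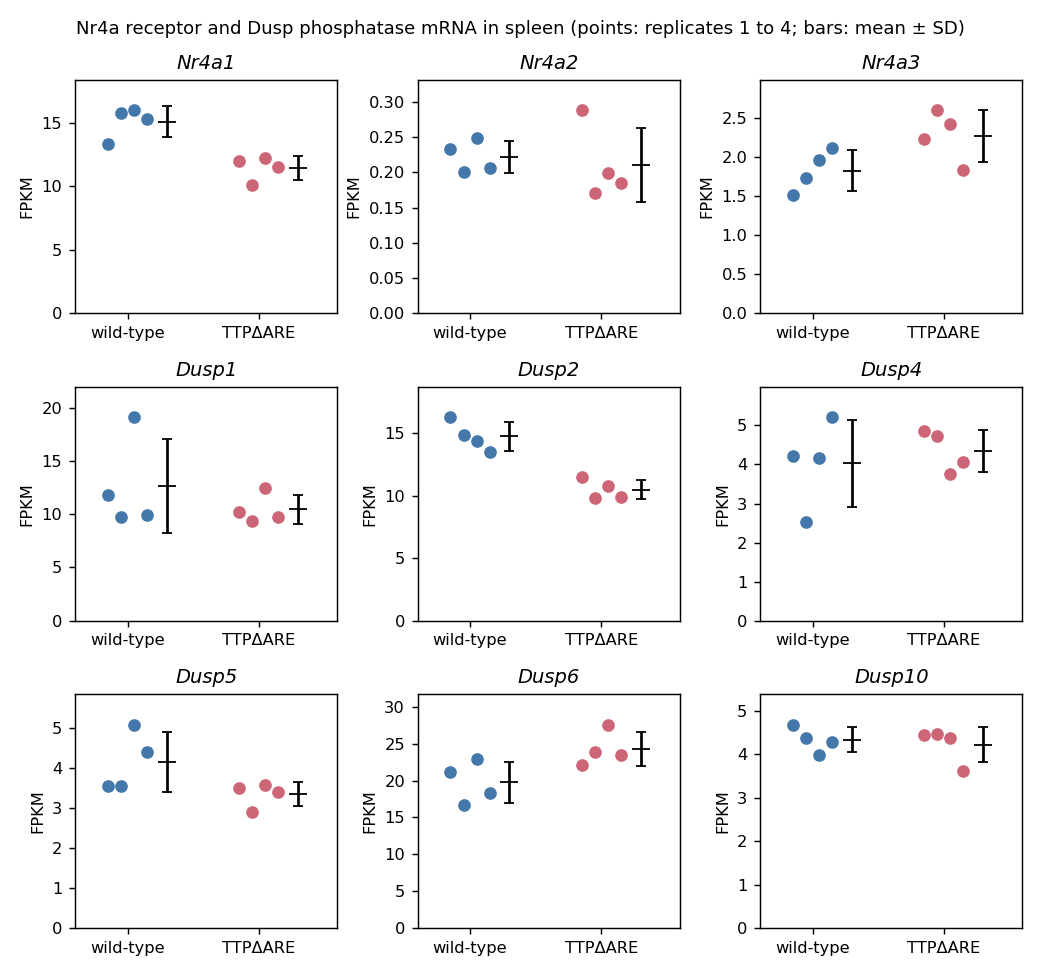
FPKM of the 9 genes in each spleen (points, replicates 1 to 4 from left to right) with mean and SD (bars, n = 4), on linear axes from 0. Nr4a2 is shown by the shorter of its 2 transcripts. Wild-type and TTPΔARE points do not overlap for Nr4a1 (13.3 to 16.0 against 10.1 to 12.2 FPKM) and Dusp2 (13.5 to 16.3 against 9.79 to 11.5 FPKM), and they overlap for the other 7 genes.

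Among the receptors, Nr4a1 made up most of the Nr4a mRNA and was lower in every TTPΔARE spleen than in any wild-type spleen. Nr4a1 lies on chromosome 15 at 101253902 to 101274795 (GRCm38/mm10). Its level was 13.3, 15.7, 16.0 and 15.3 FPKM in wild-type replicates 1 to 4 and 12.0, 10.1, 12.2 and 11.5 FPKM in TTPΔARE replicates 1 to 4. The mean went from 15.1 ± 1.21 to 11.4 ± 0.969 FPKM (SD, n = 4 each), a log2 change of -0.38 with an SE of 0.0770, 0.766-fold (limma adjusted p = 0.0217). Wild-type replicate 1 was the wild-type sample nearest to the TTPΔARE range, and the gap between the groups was that between 13.3 and 12.2 FPKM. In limma Nr4a1 had an adjusted p of 0.0510 when wild-type replicate 2 was left out, 0.0648 when wild-type replicate 4 was left out and 0.0612 when TTPΔARE replicate 4 was left out, so it then did not pass, with log2 changes of -0.33 to -0.44 over the 8 spleens left out in turn.

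Nr4a3 did not move with Nr4a1. Nr4a3, a receptor induced in T and B cells by antigen, stood at 1.51, 1.73, 1.96 and 2.11 FPKM in wild-type and 2.23, 2.60, 2.42 and 1.83 FPKM in TTPΔARE. Here 3 of the 4 TTPΔARE values were above every wild-type value, and replicate 4 lay within the wild-type range. The means were 1.83 ± 0.264 and 2.27 ± 0.331 FPKM (SD, n = 4 each; log2 0.25, SE 0.107), which did not pass (limma adjusted p = 0.211). The ratio of Nr4a1 to Nr4a3 FPKM was 7.26 to 9.12 in wild-type and 3.87 to 6.29 in TTPΔARE, without overlap. This ratio was formed after the values were seen and was not tested.

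Nr4a2, best known from dopamine neurons and also induced in activated T cells, was near the floor of the measurement in all spleens. Its shorter transcript, of 3422 bases, stood at 0.233, 0.200, 0.248 and 0.205 FPKM in wild-type and 0.288, 0.171, 0.198 and 0.185 FPKM in TTPΔARE. Its longer transcript, of 3568 bases, stood at 0.245, 0.181, 0.183 and 0.186 FPKM in wild-type and 0.245, 0.163, 0.239 and 0.225 FPKM in TTPΔARE. Both groups overlapped in both transcripts, and the smallest of these values stands for about 17 fragments. The transcripts share most of their sequence, so the division of reads between them is uncertain, and neither was tested.

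The nuclear phosphatase Dusp2, an enzyme of blood cells also called PAC-1, showed the largest difference of the 8 genes tested. Dusp2 lies on chromosome 2 at 127336159 to 127338377 (GRCm38/mm10). Its level was 16.3, 14.9, 14.4 and 13.5 FPKM in wild-type and 11.5, 9.79, 10.8 and 9.92 FPKM in TTPΔARE. Every TTPΔARE value was below every wild-type value. The mean fell from 14.8 ± 1.17 to 10.5 ± 0.785 FPKM (SD, n = 4 each), a log2 change of -0.47 with an SE of 0.0720, 0.721-fold (limma adjusted p = 0.00849), and 76th by p among the 16608 transcripts, where Nr4a1 was 300th. The call held with each spleen left out in turn (limma adjusted p = 0.0123 to 0.0312). With the mean of the erythroid markers as a covariate neither gene passed (limma log2 -0.39 and adjusted p = 0.399 for Dusp2, -0.54 and 0.240 for Nr4a1), and no transcript of the 16608 did (1302 at an unadjusted p under 0.05). The SE in this fit was 0.118 for Dusp2 and 0.114 for Nr4a1. Only wild-type replicate 3, at 4.98, and TTPΔARE replicate 2, at 4.83, made the erythroid mean overlap between genotypes. The fit therefore separates this covariate from genotype poorly.

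The B cell markers were lower beside these falls, and the non-classical monocyte markers were mixed. Of 6 B cell markers Cd22 and Fcer2a fell, and the median log2 difference of the 6 was -0.25. Dusp2 came to 1.82 ± 0.142% of the summed B cell markers in wild-type and 1.53 ± 0.161% in TTPΔARE (SD, n = 4 each), with ranges of 1.66 to 1.99% and 1.39 to 1.70% that overlap. Nr4a1 came to 1.86 ± 0.184% and 1.67 ± 0.189%, which also overlap. Of 7 non-classical monocyte markers Ace fell from 4.31 ± 0.842 to 2.32 ± 0.128 FPKM (log2 -0.75, limma adjusted p = 0.00699). The chemokine receptor Cx3cr1 stood at 7.20 ± 0.800 and 6.04 ± 0.452 FPKM and did not pass (limma adjusted p = 0.133). Of the 7, 4 lay below 0 and 3 above, with a median log2 difference of -0.05; Fcgr4, an Fc receptor, at 0.36, Itgal, an integrin subunit, at 0.10 and Treml4 at 0.09 lay above and did not pass. The 7 summed to 54.8 to 56.4 FPKM in wild-type and 50.8 to 55.6 FPKM in TTPΔARE. The part of these cell types in the falls of Nr4a1 and Dusp2 was not tested.

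Dusp1, the phosphatase of JNK and p38 that is also called MKP-1, varied more between wild-type animals than between genotypes. It stood at 11.8, 9.72, 19.1 and 9.88 FPKM in wild-type and 10.2, 9.40, 12.5 and 9.76 FPKM in TTPΔARE. Wild-type replicate 3 was the highest of the 8 and TTPΔARE replicate 3 the second, and the other 6 overlapped. The means were 12.6 ± 4.41 and 10.5 ± 1.37 FPKM (SD, n = 4 each), with a log2 difference of -0.21 and an SE of 0.179 (limma adjusted p = 0.547), and without wild-type replicate 3 the log2 difference was -0.002. With the erythroid covariate the difference was -0.72 (SE 0.217). With the mean of the B cell markers as covariate, added after seeing the data, it was -1.58 (SE 0.480). Neither was past the threshold (limma adjusted p = 0.404 and 0.993). The B cell mean does not overlap between genotypes, so a fit with it separates the covariate from genotype poorly. Fos and Egr1, both immediate early genes, were highest in the same animal: Fos, a subunit of the AP-1 factor, stood at 4.60 FPKM in wild-type replicate 3 against 1.30 to 2.36 FPKM in the other wild-type spleens, and Egr1, a zinc finger factor induced by growth signals, at 13.1 against 7.82 to 8.24 FPKM. TTPΔARE replicate 3 had the second highest Egr1 level, 10.5 FPKM. Junb, another AP-1 subunit, was not highest there, at 24.3 FPKM in wild-type replicate 3 and 25.2 FPKM in wild-type replicate 1.

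**Figure D2:**
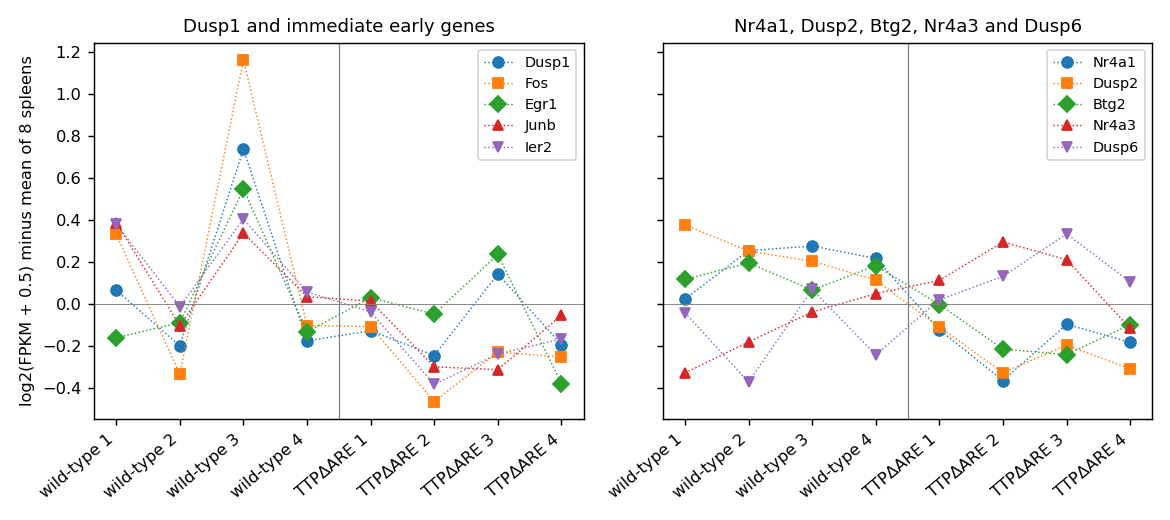
Level of each gene in each spleen, as log2(FPKM + 0.5) minus its mean over the 8 spleens (points joined by dotted lines only to guide the eye; the vertical line divides the genotypes). On the left, Dusp1, Fos, Egr1 and Ier2 are highest in wild-type replicate 3 and Junb in wild-type replicate 1; on the right, Nr4a1, Dusp2 and Btg2 are lower in all 4 TTPΔARE spleens than in any wild-type spleen, while Nr4a3 and Dusp6 are not.

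The other nuclear phosphatases did not pass. Dusp5, which acts on ERK and holds it in the nucleus, stood at 3.55, 3.56, 5.09 and 4.41 FPKM in wild-type and 3.50, 2.91, 3.58 and 3.40 FPKM in TTPΔARE. A single TTPΔARE sample, replicate 3, reached into the wild-type range. The means were 4.15 ± 0.743 and 3.35 ± 0.301 FPKM (SD, n = 4 each), with a log2 difference of -0.26 and an SE of 0.108 (limma adjusted p = 0.192). Dusp5 was at -0.63 (SE 0.111) with the erythroid and -0.84 (SE 0.348) with the B cell covariate, and did not pass in either (limma adjusted p = 0.201 and 0.993). Dusp4, also called MKP-2, stood at 4.22, 2.52, 4.17 and 5.20 FPKM in wild-type and 4.86, 4.73, 3.75 and 4.07 FPKM in TTPΔARE. All 4 TTPΔARE values lay within the wild-type range (log2 0.13, SE 0.163, limma adjusted p = 0.706), and the difference was -0.05 without wild-type replicate 2.

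Dusp6, the cytosolic phosphatase of ERK, had the highest level of the 9 genes in both genotypes. It stood at 21.1, 16.7, 22.9 and 18.3 FPKM in wild-type and 22.1, 23.9, 27.6 and 23.5 FPKM in TTPΔARE. Here 3 TTPΔARE values exceeded all wild-type values, and TTPΔARE replicate 1 lay below wild-type replicate 3. The means were 19.8 ± 2.77 and 24.3 ± 2.34 FPKM (SD, n = 4 each; log2 0.29, SE 0.0989), which did not pass (limma adjusted p = 0.121, and 0.0592 to 0.310 with each spleen left out in turn). The log2 difference of Dusp6 was 0.089 (SE 0.143) with the erythroid covariate and -0.42 (SE 0.276) with the B cell covariate, neither past the threshold. Dusp10 stood at 4.69, 4.39, 3.99 and 4.28 FPKM in wild-type and 4.45, 4.47, 4.38 and 3.62 FPKM in TTPΔARE. The groups overlapped, with means of 4.34 ± 0.287 and 4.23 ± 0.407 FPKM (log2 -0.04, SE 0.0774, limma adjusted p = 0.846).

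Within the summed mRNA of these 6 phosphatases, the nuclear genes took a smaller and the cytosolic pair a larger part in TTPΔARE spleen. The rise of the pair was that of Dusp6 (log2 0.29), as Dusp10 stood at -0.04. Dusp7, a cytosolic ERK phosphatase that is not among the 6, stood at -0.12. The 4 nuclear genes summed to 35.8, 30.7, 42.7 and 33.0 FPKM in wild-type and 30.1, 26.8, 30.6 and 27.1 FPKM in TTPΔARE. Dusp6 and Dusp10 together summed to 25.8, 21.1, 26.9 and 22.6 FPKM in wild-type and 26.5, 28.4, 32.0 and 27.1 FPKM in TTPΔARE. The sum of all 6 was 59.6 ± 7.77 and 57.1 ± 3.71 FPKM (SD, n = 4 each), so it was the makeup more than the total that differed. Dusp6 alone made up 32.3 to 34.3% of that sum in wild-type and 39.0 to 44.1% in TTPΔARE, without overlap. The mean log2 level of the nuclear genes minus that of the cytosolic pair was -0.32 ± 0.155 in wild-type and -0.65 ± 0.101 in TTPΔARE (SD, n = 4 each), a difference of -0.33, which was -0.27 to -0.39 with each spleen left out. The wild-type values ran from -0.47 to -0.13 and the TTPΔARE values from -0.75 to -0.55. As a score over chosen genes it was given no test. The nuclear genes did not share 1 direction: Dusp2 carried the fall that passed, and the ratio of Dusp2 to Dusp6 FPKM was 0.629 to 0.891 in wild-type and 0.391 to 0.519 in TTPΔARE. That ratio sets the largest fall among the 8 tested members against the largest rise, so its separation follows in part from the choice of genes. Neither the ratio nor the share of Dusp6 was tested.

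**Figure D3:**
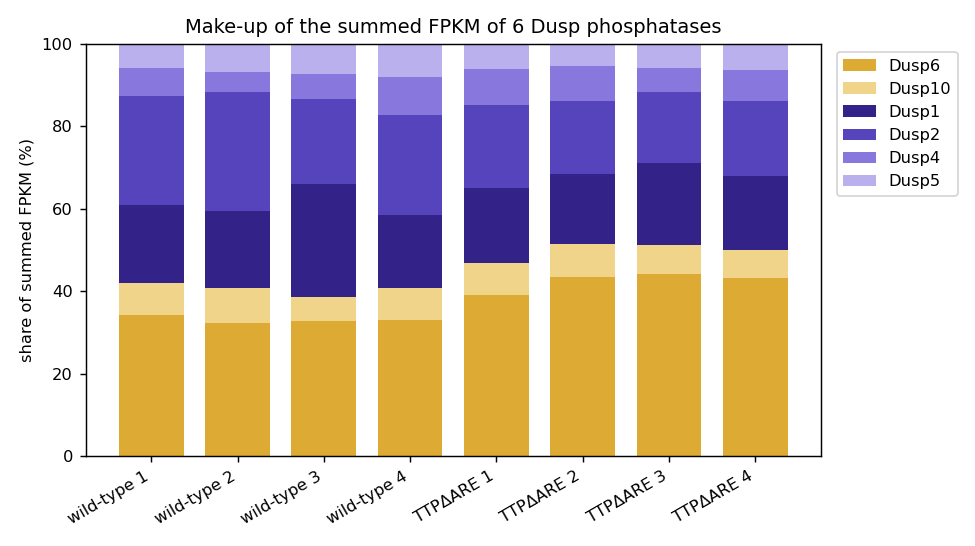
Share of each of 6 phosphatases in their summed FPKM, in percent, for each spleen (stacked bars; yellow shades, Dusp6 and Dusp10; violet shades, the nuclear phosphatases). Dusp6 takes 32.3 to 34.3% in the wild-type spleens and 39.0 to 44.1% in the TTPΔARE spleens.

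Ordered by level in wild-type spleen, Dusp6 (19.8 FPKM) stood above Nr4a1 (15.1), Dusp2 (14.8), Dusp1 (12.6), Dusp10 (4.34), Dusp5 (4.15), Dusp4 (4.03), Nr4a3 (1.83) and Nr4a2 (0.222 for its shorter transcript). The ranges of Dusp6 and Nr4a1, Dusp1 and Dusp10, Dusp4 and Nr4a3, and Nr4a3 and Nr4a2 did not overlap. The other neighbours, Nr4a1, Dusp2 and Dusp1 in one group and Dusp10, Dusp5 and Dusp4 in another, did not differ beyond their spread. In TTPΔARE spleen Dusp6 stood at 24.3 FPKM, its lowest value 22.1 FPKM, above Nr4a1 at 11.4, Dusp2 at 10.5 and Dusp1 at 10.5 FPKM, and Dusp4 at 4.35 was followed by Dusp10 at 4.23 and Dusp5 at 3.35 FPKM.

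In the remaining Dusp family 0 of the tested genes passed, and among the MAP kinases 1 rose and 1 fell. Of the 4 other MAP kinase phosphatases 2 were tested, and by limma 0 passed (0 at an unadjusted p under 0.05): Dusp7, a cytosolic ERK phosphatase, stood at 12.9 and 11.8 FPKM (log2 -0.12) and Dusp16, which acts on JNK and p38, at 3.08 and 3.10 FPKM (log2 0.004) in wild-type and TTPΔARE. Of 16 atypical family members, which lack the kinase-binding domain, 8 were tested and 0 passed (1 at an unadjusted p under 0.05), with Dusp11 at log2 0.06 and Dusp3 at 0.09. Of 10 MAP kinases tested, 2 passed by limma and 4 had an unadjusted p under 0.05. Mapk13, a p38 isoform, rose from 0.286 to 0.825 FPKM (log2 0.75, limma adjusted p = 0.00514). Its wild-type mean lay under the filter of 0.5 FPKM, and it was tested because its mean over all 8 spleens was 0.556 FPKM. Mapk6, the atypical kinase ERK3, fell from 5.18 to 4.11 FPKM (log2 -0.30, limma adjusted p = 0.0470). Mapk3, which encodes an ERK, stood at log2 0.005, and the median of the 10 was 0.01. Of 10 upstream kinases 0 passed by limma (3 at an unadjusted p under 0.05), with Map2k1, which activates ERK, at 0.08. Of 6 Sprouty and Spred genes, inhibitors of the ERK pathway, 0 passed (2 at an unadjusted p under 0.05), with Spred1 at 0.09 and Spred2 at 0.004. Rxra and Rxrb, the retinoid X receptor partners, stood at 0.03 and 0.0006, and 0 of the 2 had an unadjusted p under 0.05.

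**Figure D4:**
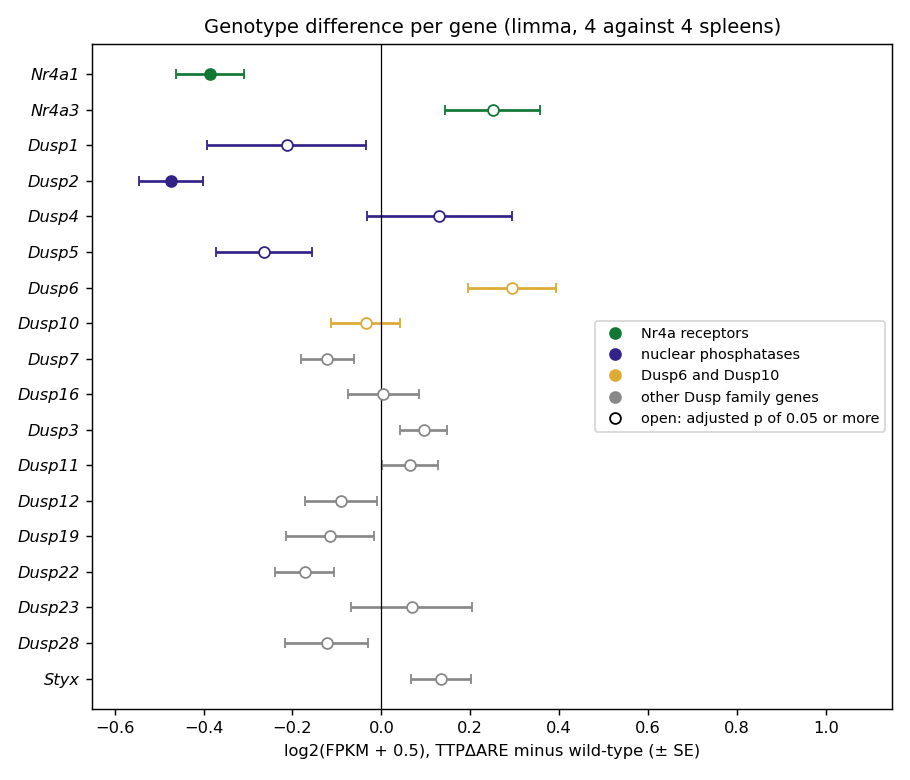
Genotype difference on the log2(FPKM + 0.5) scale, TTPΔARE minus wild-type, with its SE, for the 8 tested members and 10 other Dusp family genes (4 against 4 spleens). Filled points, at log2 -0.38 for Nr4a1 and -0.47 for Dusp2, mark adjusted p under 0.05.

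Other genes of early signalling gave a mixed picture. Of 23 immediate early genes tested, 1 rose and 1 fell. The 1 that rose was Zfp36, the gene that the TTPΔARE allele itself alters, so it is no readout of early signalling here. Btg2, an antiproliferative gene, fell from 44.6 ± 1.87 to 36.7 ± 2.87 FPKM (SD, n = 4 each), with a log2 difference of -0.28 (limma adjusted p = 0.0389). The values of 12 lay below 0 and of 11, Zfp36 among them, above 0, with a median of -0.01. Ier2, an early gene of growth signals, stood at log2 -0.41 and Jun at 0.31, each without overlap between groups, and neither passed (limma adjusted p = 0.0549 and 0.0847). Klf6 at 0.09 and Csrnp1 at -0.20 also did not overlap and did not pass (limma adjusted p = 0.407 and 0.0908). Of all tested transcripts, 12.5% did not overlap between groups. Of 8 lymphocyte activation markers the costimulatory ligand Cd80 rose (log2 0.41, limma adjusted p = 0.0177), Cd83 and Cd86 stood at -0.03 and 0.10, and the median was 0.02.

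Genes of similar pattern were sought for the 4 members with more than the median spread over the 8 spleens, as the smallest root mean square difference of log2(FPKM + 0.5) centred on its mean. For Nr4a1 these were Ptp4a3, a phosphatase, with a difference of 0.0876, Pigv with 0.0881 and Als2cl with 0.0900. For Dusp2 they were Slc25a25 with 0.0901, another Ptp4a3 transcript with 0.0906, and Coro1a, which encodes an actin-binding protein of leukocytes, with 0.0927. For Dusp1 they were the kinase gene Sgk1 with 0.117, Egr1 with 0.161 and Eme1 with 0.165. For Dusp4 they were Prr11 with 0.0756, the mitotic kinase gene Melk with 0.0792 and Zdhhc2 with 0.0857. These are descriptions over 8 spleens, and they include the difference between genotypes.

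**Figure D5:**
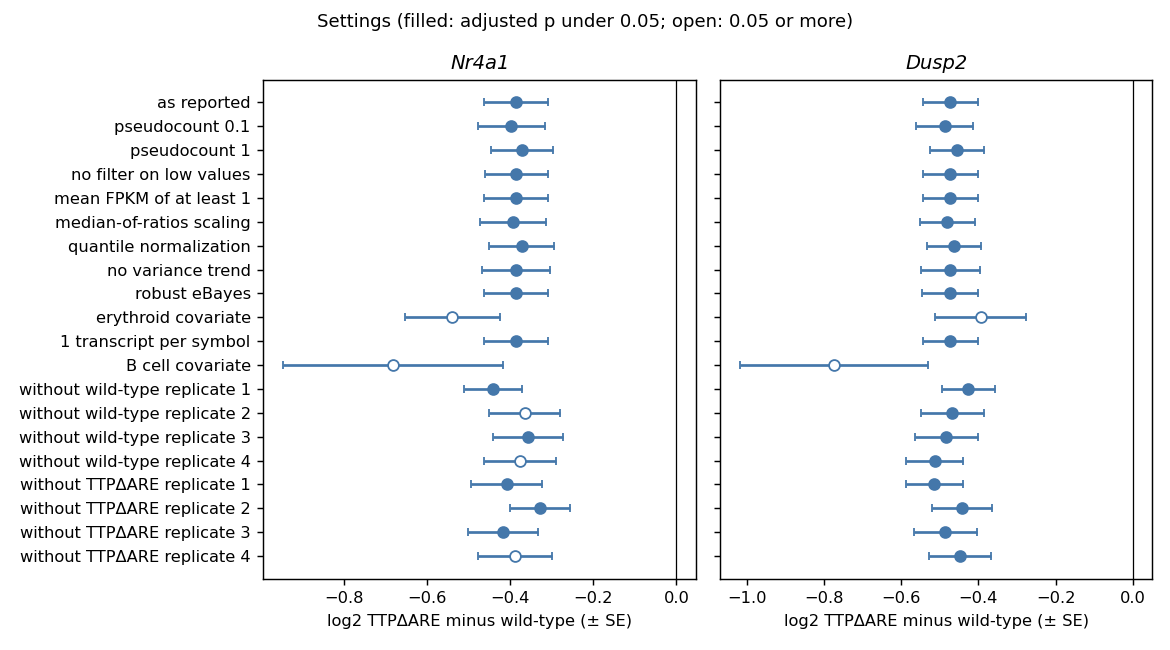
Log2 difference with its SE for Nr4a1 (left) and Dusp2 (right) under each processing setting and with each spleen left out; filled points mark adjusted p under 0.05. All values are below 0, from -0.33 to -0.68 for Nr4a1 and from -0.39 to -0.77 for Dusp2, and Dusp2 is open only with the erythroid or B cell covariate.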

How the data were processed

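The authors sequenced RNA from 8 spleens, 4 of each genotype, and deposited FPKM for each RefSeq transcript in each sample. The aligner was BWA and the build mm10, per the submitters' processing notes. How reads were counted, by which strand and with which filters is not given in the sources used here. Animals were grouped by labelled genotype, and no batch or pairing is labelled. The limma p-values set the genotype difference against the spread between animals within genotypes, moderated by a variance trend over all tested transcripts. FPKM are not counts: depth was estimated from values of at most 0.5 FPKM with GENCODE M21 lengths, where 38.1 to 41.9% were whole within 0.05 at the best depth against 8.40 to 8.76% at the median depth tried, so counts were not rebuilt.

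Transcripts whose mean reached 0.5 FPKM were tested on log2(FPKM + 0.5), which understates changes of low transcripts, with limma 3.58.1 in R 4.3.3 (variance trend, two-sided, Benjamini-Hochberg over 16608 transcripts, threshold 0.05). The step was tested on simulated data. Each list gene was represented by its transcript of highest mean. For similar patterns the 3 nearest symbols with a mean of at least 1 FPKM were named. The members, lists and tests were chosen with earlier results of these data known. Named were all 9 members, list genes past the threshold and the 2 of highest mean per pathway list, and Ier2, Jun, Junb, Fos, Egr1, Cx3cr1, Fbxo31 and Cuedc2 after their values were seen; some genes that this rule takes are not reported here. Marker lists of other cell types are given by counts: 2 of 5 neutrophil, 3 of 10 erythroid, 2 of 5 dendritic, 1 of 6 red pulp macrophage and 2 of 5 endothelial markers rose, 1 endothelial marker fell, and by limma 0 of 5 T cell (3 at an unadjusted p under 0.05) and 0 of 5 natural killer markers (1) passed. Alternatives were other pseudocounts, filters, scalings, variance models, covariates and leaving out each spleen. Tables used Python 3.11.15 with pandas 2.3.3, and plots matplotlib 3.10.9.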

Additional observations from a re-analysis of the deposited data

Results flagged for a closer look

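For Dusp10, TTPΔARE replicate 4 stood apart at 3.62 FPKM from the other 3 of its group at 4.38 to 4.47 FPKM; the gap took 0.893 of the group's range, above Dixon's critical value for 4 samples. For the longer Nr4a2 transcript, wild-type replicate 1 stood at 0.245 FPKM against 0.181 to 0.186 FPKM in the others, a gap of 0.919 of the range. Across 20 groups examined, chance flags about 1 in 20.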

How the results depend on the processing

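No paired analysis was possible because the labels give the animals no shared replicate numbers. Dusp2 and Nr4a1 kept their direction and their call under 9 of 11 processing alternatives each, the exceptions being the covariates. With the erythroid covariate 0 transcripts were higher and 0 lower by limma (1302 at an unadjusted p under 0.05), and 0 members passed (4 unadjusted). The SE of Dusp2 in that fit was 0.118, against 0.0720 without a covariate. With the B cell covariate, chosen after seeing the data, 0 and 0 passed (636 unadjusted) and 0 members (4 unadjusted), with log2 values of -0.77 for Dusp2 and -0.68 for Nr4a1; the mean log2 level of the 6 B cell markers does not overlap between genotypes, and this fit has an SE of 0.245 for Dusp2 against 0.0720 without it. Dusp6 was at 0.089 with the erythroid and -0.42 with the B cell covariate, Dusp5 at -0.63 and -0.84, Dusp1 at -0.72 and -1.58, Dusp10 at 0.13 and Dusp4 at -0.0036 with the erythroid covariate, none of them past the threshold. Using 1 transcript per symbol, with 12410 tested, left 239 higher and 215 lower, against 333 and 331 of 16608. With each spleen left out, 93 to 437 transcripts were higher and 104 to 332 lower, and 1 to 2 members were lower; the lowest counts were without TTPΔARE replicate 3. Without wild-type replicate 4 there were 114 higher and 136 lower, and without TTPΔARE replicate 4 117 and 137. Dusp10 ran from -0.071 to 0.029, above 0 without TTPΔARE replicate 4, and Dusp4 from -0.053 to 0.25, below 0 without wild-type replicate 2. Left-out log2 ranges were -0.43 to -0.51 for Dusp2 and -0.33 to -0.44 for Nr4a1. Nr4a1 passed in 5 of 8 such fits and Dusp2 in 8 of 8; the causes were not tested.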
